A study of Mus musculus with 4 samples.

Results

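The neuronal and hair cell splicing regulators are RNA-binding proteins that decide which exons of a pre-messenger RNA are kept in neurons, muscle or sensory hair cells (HCs). They were chosen by symbol. Of 10 listed genes (*Rbm24*, *Srrm4*, *Srrm3*, *Nova1*, *Nova2*, *Elavl2*, *Elavl3*, *Elavl4*, *Ptbp1* and *Ptbp2*), 9 had a row among the 12814 genes of the RNA-seq table, and *Elavl3* was not analysed here. The table held 4 columns of values from newborn mice of the C57BL/6 background with the *Atoh1/nGFP* transgene, which puts a nuclear green fluorescent protein (GFP) into HCs. From the cochlea and from the vestibular organs, HCs were sorted as cells with both GFP and the epithelial surface protein CD326, and epithelial non-sensory cells (ENSCs) as cells with CD326 alone. All 4 populations carry the transgene, the labels set them apart by organ and by sort, and the tissue of several mice was pooled for a sort. Differences in library preparation or depth cannot be told apart from those of organ and sort. Each population had 1 column, called a library below, which may hold a single library or combine several, so no difference below has a replicate check, an error or a test, and neighbouring levels cannot be said to differ.

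Most of these proteins work by binding short RNA motifs beside an exon and either helping or blocking the spliceosome there. SRRM4, an SR-related protein, promotes inclusion of very short neuronal exons, and mice with a truncated *Srrm4* are deaf and have balance defects. PTBP1, which binds pyrimidine-rich RNA, holds neuronal exons back in most non-neuronal cells, and in developing neurons PTBP1 gives way to its paralogue PTBP2. RBM24 is an RNA recognition motif protein of muscle that is also made by HCs, and REST, a repressor of neuronal genes, is itself spliced under the control of SRRM4.

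The exon through which PTBP1 is known to act on *Ptbp2* is shown because it links the last 2 members of the list. PTBP1 causes this exon to be skipped, and the transcript without it is degraded. The exon (capitals) lies in mm9 at chr3:119427530-119427563 on the minus strand, is 34 bases long and is number 10 of 14 in the annotated transcript. It is printed with 100 intron bases before it and 40 after it (chr3:119427490-119427663).
Ptbp2 exon 10: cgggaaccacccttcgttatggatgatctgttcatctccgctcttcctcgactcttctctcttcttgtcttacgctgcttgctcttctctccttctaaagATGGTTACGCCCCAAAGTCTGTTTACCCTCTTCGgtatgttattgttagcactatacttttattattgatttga
The 100 bases before the exon held TCTT 6 times and CTCTCT 1 time on the transcript strand, with overlapping matches counted, and 73% of them were pyrimidines. Among 136304 internal exons of protein-coding genes in the table, the median was 1 TCTT in such a window, 0.237% of windows held at least as many and 1.47% had at least as high a pyrimidine share. These letters are a description, since the gene-level values carry no exon resolution and inclusion of the exon was not measured.

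The promoters of *Rbm24* and *Srrm4* are shown because these genes passed 3-fold in HCs of both organs. They run from 250 bases before to 50 bases after the transcription start of the RefSeq entries on GRCm38.p6, a later build than that of the deposited values, at chr13:46418050-46418349 on the plus strand for *Rbm24* and at chr5:116591768-116592067 on the minus strand for *Srrm4*. Capitals mark matches, on either strand, to CAGCTG, an E-box of the kind bound by ATOH1 and related factors, to GTTGCC, part of the X-box bound by RFX factors, or to GGACAGC and CAGCACC, parts of the site bound by REST.
Rbm24 promoter: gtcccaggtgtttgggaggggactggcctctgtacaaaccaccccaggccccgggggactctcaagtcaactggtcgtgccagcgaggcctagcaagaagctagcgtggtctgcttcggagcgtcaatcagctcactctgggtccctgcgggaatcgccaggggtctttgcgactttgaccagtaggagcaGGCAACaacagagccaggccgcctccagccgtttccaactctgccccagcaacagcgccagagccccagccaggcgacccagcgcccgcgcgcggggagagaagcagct
Srrm4 promoter: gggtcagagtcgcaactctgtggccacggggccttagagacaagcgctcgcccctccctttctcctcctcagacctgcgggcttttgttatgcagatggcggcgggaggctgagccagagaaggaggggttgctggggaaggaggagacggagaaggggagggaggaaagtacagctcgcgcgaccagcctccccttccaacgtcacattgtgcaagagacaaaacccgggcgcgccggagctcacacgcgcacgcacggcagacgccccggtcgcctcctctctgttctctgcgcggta
The *Rbm24* window held 1 match, to GTTGCC on the opposite strand, and the *Srrm4* window held none. Of 32851 RefSeq promoters of this length, 16.3% held CAGCTG, 12.5% GTTGCC, 6.56% GGACAGC and 7.14% CAGCACC, so a single match of this kind is common. A match was not tested as a binding site.

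Expression is given as signal, the deposited number of reads per gene after quantile normalization, a step that gives every library the same set of values (median 120) and a floor of 20. The lowest values of a library were taken as a tied range whose members cannot be ranked. Its top was estimated at 24.25 in cochlear HCs, 22.75 in cochlear ENSCs, 30.5 in vestibular HCs and 20 in vestibular ENSCs. The estimate is the signal above which the genes' highest signal in the other libraries drops sharply, or the floor where no such drop was found. A fold against such a value is given as a lower bound, against the top of that range. A change was called at 3-fold or more. The HC label was checked with HC markers, of which 10 of 10 were higher by 3-fold or more in HCs of either organ, with summed signals of 37420 and 1880 in cochlear HCs and ENSCs and 32616 and 1467 in vestibular HCs and ENSCs. In the cochlea 8.39% of all genes were at least 3-fold higher and 9.20% at least 3-fold lower in HCs, and the vestibular shares were 13.8% and 14.3%. Since the ratio between vestibular libraries fell with the GC content of a gene (Spearman's rho of -0.395 over 10358 genes, and -0.453 over 10475 genes for the ratio of the ENSCs, against -0.0400 and 0.0215 for the cochlear and the HC ratios), log2 ratios are also given after correction for exonic length and GC content where this matters.

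At the 3-fold threshold, 2 of the 9 genes, *Rbm24* and *Srrm4*, were higher in cochlear HCs than in cochlear ENSCs and none was lower, against 8.39% and 9.20% of all genes (17.6% in all). In the vestibular system 5 of the 9, *Rbm24*, *Elavl4*, *Srrm4*, *Elavl2* and *Nova1*, were higher in HCs and none was lower, against 13.8% and 14.3% (28.1% in all). The calls of *Nova1* and *Elavl2* were lost with signals under 50 raised to 50, which left 3, and that of *Nova1* also after correction for length and GC content. The median of their log2 ratios was 1.18 for the cochlear and 1.71 for the vestibular libraries, beside 0.00 for all genes in either organ. A gene had a row only if enough reads fell on it in some library, so these counts describe the 9 genes and do not stand for the whole list. Because each library came from many cells, fewer cells with a transcript and less transcript per cell cannot be told apart.

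**Figure D1:**
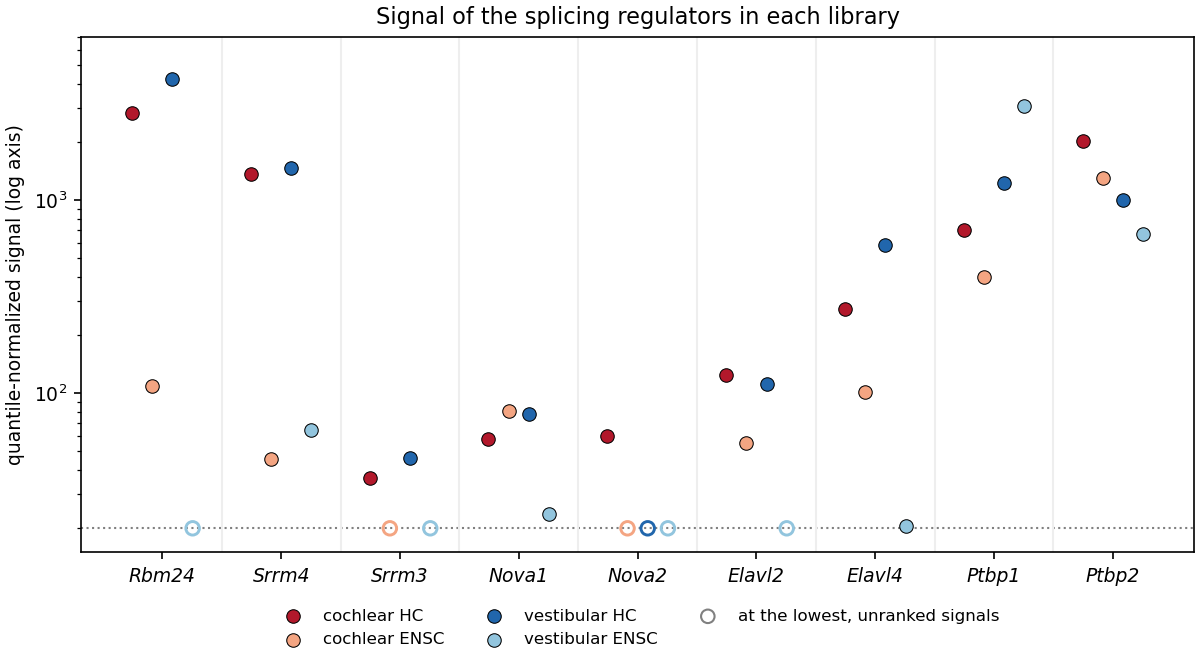
Signal of the 9 regulators with a row, on a log axis, in cochlear and vestibular HCs and ENSCs. Each marker is 1 library, with no error, and the dotted line is the floor of 20. *Rbm24* and *Srrm4* lie at 1358.25 or more in both HC libraries and at 109.25 or less in both ENSC libraries, whereas *Ptbp2* stays between 670 and 2027 in all 4.

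*Rbm24* (ENSMUSG00000038132, mm9 chr13:46513669-46526459, plus strand) had a signal of 2834.5 in cochlear HCs, 109.25 in cochlear ENSCs, 4249.25 in vestibular HCs and 20 in vestibular ENSCs. Both HC libraries were thus far above both ENSC libraries, and the vestibular ENSC value was the floor. The HC signal was 25.9-fold higher than that of ENSCs in the cochlea (log2 ratio 4.70, rank 68 of 12814 genes from the top) and at least 212-fold higher in the vestibular system (rank 8). Between the HCs of the organs it differed by 1.5-fold, higher in the vestibular system. The cochlear ENSC signal was at least 5.46-fold higher than the vestibular one. Correction for length and GC content moved the cochlear log2 ratio to 4.83 and the vestibular one to 8.17.

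*Srrm4* (ENSMUSG00000063919, chr5:116889281-117041826, minus strand) was at 1358.25 in cochlear HCs, 45.5 in cochlear ENSCs, 1470.25 in vestibular HCs and 64.25 in vestibular ENSCs. The pattern was alike in the organs, with both HC values above both ENSC values. No spread is known for these values, and the share of all genes with this order was not counted. The HC signal was 29.9-fold higher in the cochlea (log2 ratio 4.90, rank 53) and 22.9-fold higher in the vestibular system (log2 ratio 4.52, rank 167). The log2 ratios differed by 0.38 between the organs as deposited, higher in the cochlea, and were 4.88 and 4.94 after correction. A stretch of 68 exonic bases overlaps *2410137F16Rik* on the opposite strand, and the strand setting of the read counting is not given in the sources used here, so reads of that stretch cannot be assigned to a strand.

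*Srrm3* (ENSMUSG00000039860, chr5:136282760-136350642, plus strand), the paralogue of *Srrm4* that also acts on very short exons, was close to the floor, at 36.25 in cochlear HCs, 20 in cochlear ENSCs, 46 in vestibular HCs and 20 in vestibular ENSCs. Both HC values lay above the tied range of their library and both ENSC values at the floor. Relative to ENSCs, cochlear HCs were higher by at least 1.59-fold and vestibular HCs by at least 2.3-fold, under the threshold. Correction moved the vestibular log2 ratio from 1.20 to 2.31, past it. Set per kilobase of exon, the scale on which levels of different genes can be compared, *Srrm4* was at 172 and 186 in cochlear and vestibular HCs and *Srrm3* at 5.66 and 7.18.

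The ENSC signal of *Rbm24* and *Srrm4* was set beside that of HC markers, since any HC sorted as an ENSC would carry both. The cochlear ENSC signal was 3.85% of the HC signal for *Rbm24* and 3.35% for *Srrm4*. For the HC transcription factors *Atoh1* and *Pou4f3* it was 3.17% and 2.51%, for the motor proteins *Myo7a* and *Myo6* 2.07% and 5.36%, and for *Otof*, the calcium sensor of HC synapses, 3.78%, so both regulators lay within the range of these markers. In the vestibular system it was at most 0.471% for *Rbm24* and 4.37% for *Srrm4*, beside 0.532% for *Otof*, 5.86% for *Myo6* and upper limits of 3.97% for *Atoh1*, 0.803% for *Pou4f3* and 1.14% for *Myo7a*. The *Srrm4* share was thus above those of these markers other than *Myo6*, and the *Rbm24* limit was below the *Otof* and *Myo6* shares. Whether the ENSC signal of these genes comes from HCs in the ENSC gate was not tested.

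The ELAVL proteins are neuronal relatives of the ubiquitous HuR and bind U-rich RNA, with effects on splicing and on message stability. *Elavl4* (ENSMUSG00000028546, chr4:109876327-110024514, minus strand) had a signal of 271.5 in cochlear HCs, 101.25 in cochlear ENSCs, 586.75 in vestibular HCs and 20.5 in vestibular ENSCs. Both HC values exceeded both ENSC values, but the distance differed between the organs. The HC signal was 2.68-fold higher than that of ENSCs in the cochlea and 28.6-fold higher in the vestibular system, where it ranked 121 from the top. The log2 ratios of 1.42 and 4.84 differ by 3.42, which splits into a vestibular HC signal 2.16-fold above the cochlear one and a vestibular ENSC signal 4.94-fold below the cochlear one. After correction the log2 ratios were 1.37 and 4.16 and their difference 2.79. The vestibular fold, its rank and both differences rest on an ENSC signal of 20.5, just above the floor of 20.

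*Elavl2* (ENSMUSG00000008489, chr4:90917454-91066675, minus strand) was lower, at 124.75 in cochlear HCs, 55 in cochlear ENSCs, 111.75 in vestibular HCs and 20 in vestibular ENSCs. The HC values of the organs were 1.12-fold apart. Its HC to ENSC difference was 2.27-fold in the cochlea, under the threshold, and at least 5.59-fold higher in the vestibular system. As for *Elavl4*, the ENSC value was lower in the vestibular than in the cochlear library, by at least 2.75-fold. The vestibular log2 ratio was 2.48 as deposited and 1.88 after correction, and the call was lost when all signals under 50 were raised to 50 (log2 ratio 1.16).

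The NOVA proteins are neuronal KH-domain proteins that set the splicing of many synaptic transcripts, and both genes were low in all 4 libraries. *Nova1* (ENSMUSG00000021047, chr12:47795504-47919762, minus strand) was at 58 in cochlear HCs, 80.5 in cochlear ENSCs, 77.75 in vestibular HCs and 23.75 in vestibular ENSCs. The vestibular ENSC library was the low one, and the other values were within 1.39-fold of each other. The cochlear log2 ratio of HCs to ENSCs was -0.47. The vestibular one was 1.71 and fell under the threshold to 0.89 after correction for length and GC content and to 0.64 with signals under 50 raised to 50. *Nova2* (ENSMUSG00000030411, chr7:19510698-19551031, plus strand) had 59.75 in cochlear HCs and 20 in each of the other libraries. Its cochlear fold was at least 2.63 against ENSCs, and at least 1.96 against vestibular HCs, and 2652 of its exonic bases overlap *Gm17370* on the opposite strand, so even this signal cannot be assigned to *Nova2* alone.

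*Ptbp2* (ENSMUSG00000028134, chr3:119421660-119486306, minus strand) had a signal of 2027 in cochlear HCs, 1306.5 in cochlear ENSCs, 999.5 in vestibular HCs and 670 in vestibular ENSCs. It was well expressed in ENSCs as in HCs. The HC signal was 1.55-fold higher in the cochlea and 1.49-fold higher in the vestibular system, under the threshold, and the vestibular log2 ratio went from 0.58 to -0.06 after correction. Between the organs the cochlear signal was 2.03-fold higher in HCs and 1.95-fold higher in ENSCs (log2 ratios 1.02 and 0.96, and 1.0 and 0.28 after correction).

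*Ptbp1* (ENSMUSG00000006498, chr10:79317172-79327516, plus strand) was at 703.75 in cochlear HCs, 401.25 in cochlear ENSCs, 1227 in vestibular HCs and 3080 in vestibular ENSCs. The vestibular ENSC library was the highest and the cochlear ENSC library the lowest, so HCs lay between the ENSCs of the organs. The HC signal was 1.75-fold higher than that of ENSCs in the cochlea and 2.51-fold lower in the vestibular system, both under the threshold, while the vestibular ENSC signal was 7.68-fold higher than the cochlear one (log2 ratio of cochlea to vestibular system -2.94, and -2.29 after correction). The exonic GC content of *Ptbp1* is 55.1%, beside a median of 48.8% for the table, and correction moved the vestibular log2 ratio of HCs to ENSCs from -1.33 to -0.50. Its value is also uncertain in itself. Of 215 stretches of 50 bases from its exons, 92 (42.8%) match elsewhere in the mm9 genome with at most 2 mismatches, 82 of them within chr13:3136698-3139317, where no gene is annotated, and 773 exonic bases overlap genes on the opposite strand (*BC005764*, *E130317F20Rik* and *Gm17134*). Among the other genes with a row, *Srrm3* had such matches for 2.89% of its stretches, *Nova2* for 0.565%, and the rest for none.

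Per kilobase, *Ptbp2* stood above *Ptbp1* by 4.07-fold in cochlear HCs, 4.6-fold in cochlear ENSCs and 1.15-fold in vestibular HCs, whereas *Ptbp1* stood above *Ptbp2* by 3.26-fold in vestibular ENSCs. From ENSCs to HCs the log2 ratio of *Ptbp2* to *Ptbp1* thus moved by -0.18 in the cochlear and by 1.90 in the vestibular libraries as deposited. After correction for length and GC content the moves were -0.25 and 0.44, so most of the vestibular one was gone. These balances carry the uncertainty of *Ptbp1* given above, and the GC content of *Ptbp1* and *Ptbp2* differs (55.1% and 40.6%).

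Per kilobase the order of the regulators in cochlear HCs was *Rbm24* at 882, *Ptbp2* at 603, *Srrm4* at 172, *Ptbp1* at 148, *Elavl4* at 50.4, *Elavl2* at 22.9, *Nova1* at 8.29, *Nova2* at 6.63 and *Srrm3* at 5.66. In vestibular HCs *Rbm24* was again first at 1322, followed by *Ptbp2* at 297, *Ptbp1* at 258, *Srrm4* at 186 and *Elavl4* at 109. In ENSCs the order was led by the PTB proteins, with *Ptbp2* at 388 and *Ptbp1* at 84.5 in the cochlea and *Ptbp1* at 649 and *Ptbp2* at 199 in the vestibular system. *Rbm24* at 34 in cochlear ENSCs and *Srrm4* at 8.14 in vestibular ENSCs came next in their libraries.

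**Figure D2:**
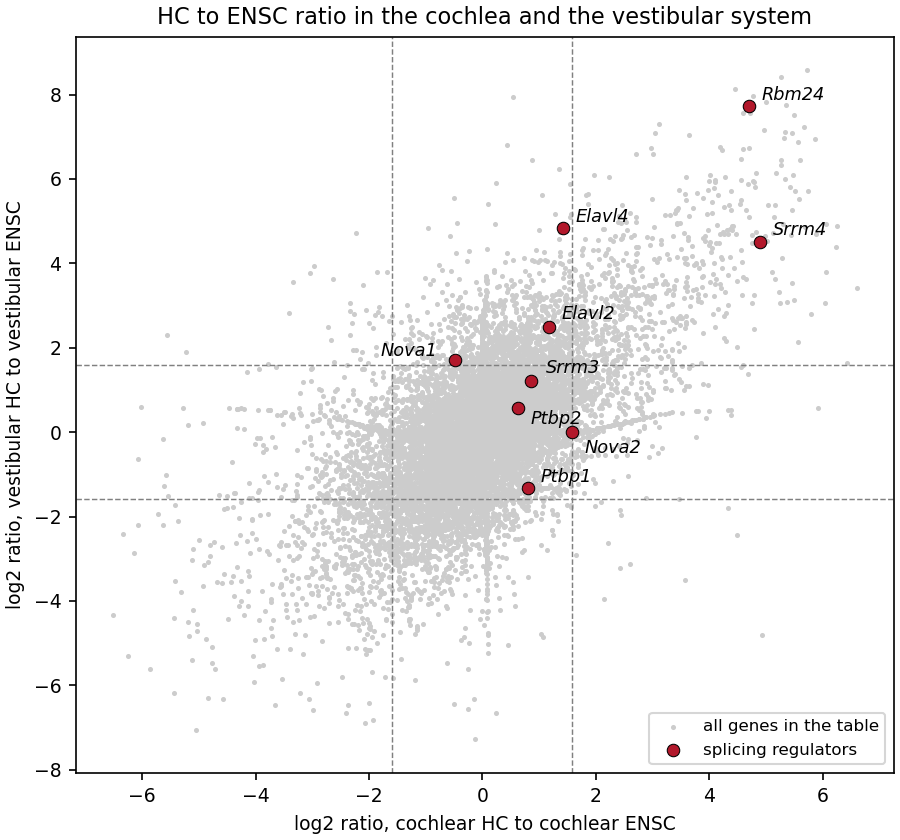
Log2 ratio of HC to ENSC signal in the cochlea (horizontal) and in the vestibular system (vertical) for all 12814 genes (grey) and the 9 regulators (red), 1 library per population; dashed lines mark 3-fold. *Rbm24* and *Srrm4* lie in the upper right, *Elavl4*, *Elavl2* and *Nova1* pass the threshold in the vestibular system, and *Ptbp1* lies above 0 in the cochlea and below 0 in the vestibular system.

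Between organs, none of the 9 genes reached 3-fold in HCs in either direction (4.21% of all genes were higher and 5.09% lower in cochlear HCs, 9.30% in all), and their median cochlear to vestibular log2 ratio was -0.34. Values ran from -1.11 for *Elavl4* to 1.02 for *Ptbp2*, leaving aside *Nova2*, for which only the lower bound of 1.96-fold is known. Between ENSCs, *Rbm24*, *Elavl4* and *Nova1* passed 3-fold on the cochlear side and *Ptbp1* on the vestibular side, beside 7.80% and 7.94% of all genes (15.7% in all). The 3 higher genes had vestibular ENSC signals of 20, 20.5 and 23.75, at or close to the floor, and with signals under 50 raised to 50 none of them kept the call (log2 ratios 1.13, 1.02 and 0.69). The difference between the organs in the HC to ENSC ratio of *Rbm24*, 3.03 on the log2 scale, rests on that same floor value.

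**Figure D3:**
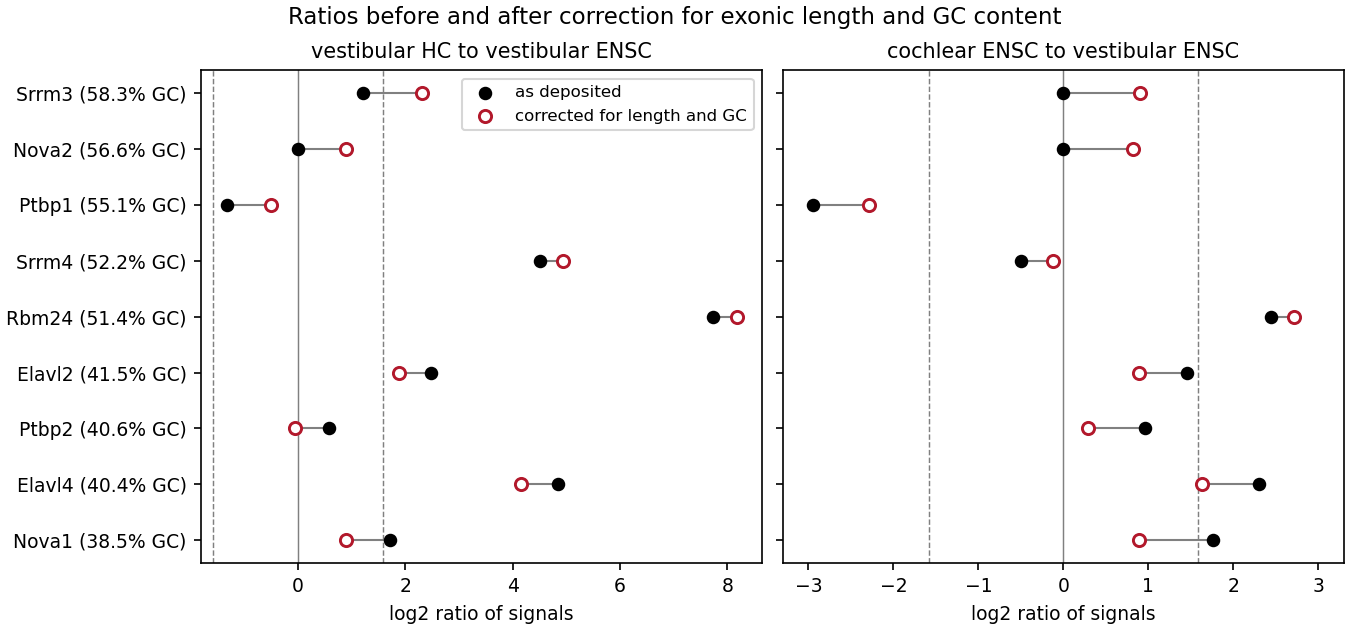
Log2 ratio of vestibular HCs to vestibular ENSCs and of cochlear to vestibular ENSCs for the 9 regulators ordered by exonic GC content, as deposited (filled) and after correction for exonic length and GC content (open); dashed lines mark 3-fold and each ratio is of 1 library to another. Correction raised the ratios of the GC-rich genes and lowered those of the AT-rich ones, *Nova1* fell under the threshold in both panels, and *Srrm3*, with its ENSC signal at the floor, passed it on the left.

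Other cell types in the gates were examined with marker lists. Of 18 neuron markers 10 had a row, with a summed signal of 9684 in cochlear HCs, 6386 in cochlear ENSCs, 10040 in vestibular HCs and 710.5 in vestibular ENSCs. Cochlear HCs had 3 of the 10 higher by 3-fold or more and 2 lower, and vestibular HCs had 4 higher and 0 lower. The neurofilament gene *Nefl* was at 2380.75 and 41 in cochlear HCs and ENSCs and at 2470 and 20 in vestibular HCs and ENSCs, and *Nefm* and the synaptic gene *Snap25* followed the same pattern. *Isl1*, a transcription factor of sensory neurons that is also made in the otic epithelium, was instead at 3682, 4976.25, 2957.25 and 339 in the same order. *Dcx*, a microtubule protein of young neurons, was at 78.5, 815.5, 153 and 118, and *Stmn2*, a tubulin-binding protein of neurons, at 30.75, 81.5, 22 and 20. The summed neuron signal was, like *Elavl4*, *Elavl2* and *Nova1*, lowest in vestibular ENSCs, and its part in their ratios was not tested. Most of that sum came from *Isl1*, *Nefl*, *Nefm* and *Snap25* in every library, so it does not measure neurons alone. The median of the 10 markers was also lowest in vestibular ENSCs (21.25, and 79.125 or more elsewhere), whereas *Dcx* was lowest in cochlear HCs. Glial markers summed to between 1253 and 4828.5 and mesenchyme markers to between 410.5 in vestibular HCs and 16376 in cochlear ENSCs. Of 9 glial markers 6 were lower by 3-fold or more in cochlear HCs and 4 in vestibular HCs, and of 8 mesenchyme markers 3 and 5 were. No glial marker was past 3-fold higher in HCs, and 1 mesenchyme marker was, *Pdgfra*, at 481.75 and 54.25 in cochlear HCs and ENSCs and 162.75 and 47.75 in the vestibular pair. Supporting cell markers summed to 16168 and 98992 in cochlear HCs and ENSCs and to 13851 and 23518 in vestibular HCs and ENSCs. Of these 10 markers, 4 were past 3-fold lower in cochlear HCs and 0 higher (median log2 ratio -1.08), whereas vestibular HCs had 3 lower and 1 higher (median -0.12). The higher one was *Sox2*, a transcription factor of the sensory epithelium, at 3960.75 in vestibular HCs and 465.75 in vestibular ENSCs, so this list did not set the vestibular ENSC library apart as it did the cochlear one. Of 10 endothelium and blood markers only 2 had a row. The endothelial gene *Kdr* was at 1461.75 in vestibular ENSCs and at most 29.75 in the other libraries, the macrophage gene *Cd68* was at most 24.75 in all 4, and the part of such cells in the high *Ptbp1* signal of that library was not tested. Sorting for CD326 was meant to leave neurons, endothelium and other non-epithelial cells out of all 4 populations.

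The other tissue-restricted splicing regulators split in both directions. Of 33 listed, 29 had a row, of which cochlear HCs had 3 higher by 3-fold or more and 7 lower, with a median log2 ratio of 0.00. Vestibular HCs had 4 higher and 6 lower, with a median of 0.33 (-0.01 after correction). The genes past the threshold in the same direction in both organs were 5 lower in HCs and 1 higher, while over all genes 4.66% were lower and 4.99% higher in both.

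Among the 5 lower genes, *Esrp1*, the main splicing regulator of epithelial cells, was at 200.5 and 982.75 in cochlear HCs and ENSCs and at 225.75 and 1693 in vestibular HCs and ENSCs, which is 4.90-fold and 7.50-fold lower in HCs. *Rbm47*, another RNA-binding protein of epithelia, was at 188.5, 1663.25, 157.25 and 980.5 in the same order (8.82-fold and 6.24-fold lower). *Mbnl2*, a muscleblind protein that promotes late-stage splice forms, was at 523, 3619.25, 1120.5 and 4725.5 (6.92-fold and 4.22-fold lower). These 3 genes were thus well expressed in the ENSCs of either organ. *Qk*, a STAR-family protein best known from glia, was at 2489.5, 9133, 1846.75 and 5990 (3.67-fold and 3.24-fold lower). *Rbpms*, a regulator of smooth muscle splicing, was at 25, 328.5, 29.75 and 850 (13.1-fold lower in the cochlea and at least 27.9-fold lower in the vestibular system). Glial and mesenchyme markers were likewise lower in HCs, as given above, and their part in the *Qk* and *Rbpms* ratios was not tested.

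The gene higher in HCs of both organs was *Raver2*, whose product binds PTB proteins. Its signal was 1093 in cochlear HCs, 158.75 in cochlear ENSCs, 705.25 in vestibular HCs and 92.25 in vestibular ENSCs (6.89-fold and 7.64-fold higher). All 6 genes kept their side of the threshold after correction for length and GC content.

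The general splicing machinery was read against the shares of all genes past 3-fold in either direction, 17.6% for the cochlear and 28.1% for the vestibular comparison. Of 15 SR proteins, which help define exons, none reached 3-fold in cochlear HCs (median log2 ratio 0.62), whereas vestibular HCs had 1 higher and 1 lower (median 0.21, and -0.35 after correction). The lower one, *Srsf9*, had a vestibular HC signal of 22.5, inside the tied range, so its fold was only bounded at 2.46 or more and its call is not secure (log2 ratio -0.76 after correction). The higher one, *Tra2a*, went from a log2 ratio of 1.67 to 1.29 after correction, while *Srsf4* went from 1.07 to 1.78, past the threshold. Of 24 hnRNP proteins, which coat pre-messenger RNA, 1 was higher in cochlear HCs and 2 higher and 1 lower in vestibular HCs (medians 0.15 and 0.38). The gene higher in both was *Pcbp3*, a poly(C)-binding protein, at 144, 24.75, 88.5 and 21.5 in cochlear HCs, cochlear ENSCs, vestibular HCs and vestibular ENSCs. Both of its calls were lost with signals under 50 raised to 50 (log2 ratios 1.53 and 0.82). Of 34 core spliceosome genes none reached 3-fold in cochlear HCs (median 0.34). Vestibular HCs had 1 higher and 2 lower (median -0.17), and 2 higher and 0 lower after correction (median 0.13).

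**Figure D4:**
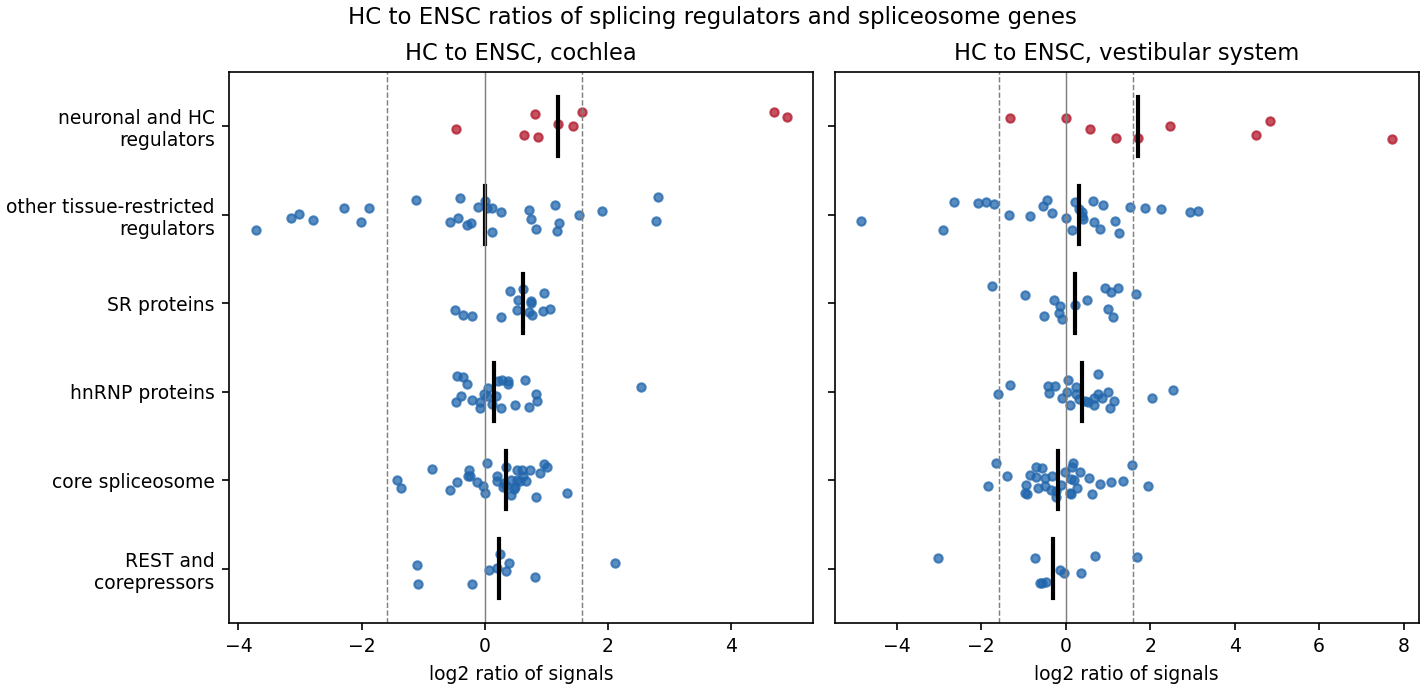
Log2 ratio of HC to ENSC signal in the cochlea (left) and the vestibular system (right) for the genes of each list; each point is a gene, the black bar is the list's median, dashed lines mark 3-fold, and every ratio is of 1 library to another. In the cochlea 7 of the 9 neuronal and HC regulators and nearly all core spliceosome, SR and hnRNP genes lie within 3-fold, and the pair far to the right is *Rbm24* and *Srrm4* at 4.70 and 4.90.

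*Rest*, the repressor whose transcript SRRM4 is known to splice in HCs, was at 1760.75 in cochlear HCs, 3783.5 in cochlear ENSCs, 1610.75 in vestibular HCs and 2683.25 in vestibular ENSCs. It was lower in HCs by 2.15-fold in the cochlea and 1.67-fold in the vestibular system, under the threshold, and clearly detected in all 4 libraries. Which *Rest* splice form these reads came from cannot be read from a gene-level value. Of 10 genes for REST and its corepressors, *Rcor2*, a CoREST protein, was at least 3-fold higher in HCs of both organs, with 87.5 in cochlear HCs against 20.25 in ENSCs, and 143.75 against 44.25 for the vestibular populations. Both calls were lost with signals under 50 raised to 50 (log2 ratios 0.81 and 1.52). *Ctdsp1*, a phosphatase recruited by REST, was lower in vestibular HCs by at least 7.32-fold (27.5 against 223.25). Over all genes 4.99% were past 3-fold higher in HCs of both organs.

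Of 9 genes with exons known to depend on these regulators, 7 had a row, and 2 were past 3-fold higher in HCs of both organs, beside 4.99% of all genes. Their median log2 ratio was -0.42 for the cochlear and -0.74 for the vestibular comparison (-0.07 after correction). *Cdh23*, a tip link cadherin with an HC-specific exon whose inclusion RBM24 promotes, was at 530.75 and 86.75 in cochlear HCs and ENSCs and at 524.25 and 136.5 in vestibular HCs and ENSCs. *Pcdh15*, its tip link partner, was at 5618.25, 1207.75, 8510.25 and 416.75 in the same order. In vestibular HCs 2 others were lower, *Unc13b*, a priming factor for synaptic vesicles, by 15.2-fold (117.75 against 1784.75) and *Dab1*, an adaptor of reelin signalling, by 3.19-fold (37.5 against 119.75, a call lost with signals under 50 raised to 50). Whether the exons of these genes were used differently cannot be read from these values.

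The genes with patterns most like those of the main regulators were found by distance between log2 signals over the 4 libraries, each gene centred on its own mean, among the 6727 protein-coding genes that reached a signal of 200 in some library. Among the nearest to *Rbm24* were *Ptprq* (distance 0.14), *Sh2d4b* (0.25), *Myo3b* (0.49) and *Trim36* (0.62). Nearest to *Srrm4* were *Fank1* (0.49), *Atp8a2* (0.50), *Fam70b* (0.51), *4932411E22Rik* (0.52) and *Grxcr2* (0.53), and all 5 had ENSC signals within the tied ranges, below those of *Srrm4*. Nearest to *Elavl4* were *Ftsjd1* (0.56), *Gramd1c* (0.57), *Fam151b* (0.61), *Enkur* (0.64) and *Pcdh15* (0.67).

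*Ptbp1* had *Abca2* (0.31), *Wnk2* (0.35), *Stat3* (0.37), *Ipo13* (0.39) and *Pkd1* (0.39) nearest to it, whose exonic GC content of 51.7% to 60.6% was above the median of the table, like its own. *Ptbp2* had *Fam49b* (0.09), *Klhl12* (0.15), *Rpp14* (0.17), *Supt7l* (0.17) and *Ercc5* (0.18), with a GC content of 43.2% to 47.5%, below that median. A distance over 4 values from single libraries is a description of likeness and no more.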

How the data were processed

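The NuGEN Ovation system served to amplify RNA from the sorted populations, and the labels name polyadenylated RNA. According to the methods, the authors used TopHat to align the first 50 bases of each read to mm9, assigned reads to ENSEMBL genes by HTSeq, kept genes with at least 20 reads, quantile-normalized the counts and set a floor of 20. The deposited values are therefore a normalized signal, not counts, and the depth of each library is unknown. The tied ranges were estimated as for a floor set before normalization, the reverse of the order in the methods, and the lower bounds depend on them. The release of the ENSEMBL annotation, the strandedness of the counting and tool versions are not given in the sources used here. The design text speaks of triplicates, whereas the table held 1 column per population, and whether a column combines replicates is not stated, so no error, test or p-value is given. Columns were matched to samples by name, each non-HC column being read as that organ's ENSC sample.

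Log2 ratios were formed on the signals with no pseudocount, with 3-fold as the threshold. Gene lengths, GC content and positions came from the GENCODE annotation of mm9, in which 12799 of 12814 genes were found by identifier. The correction was a lowess fit (statsmodels 0.14.6, 0.3 of the genes, 2 robust iterations) of the log2 ratio on length and then on GC content, tested on simulated data. Exon stretches of 50 bases were matched to the genome with BLAST+ 2.17.0. All 10 listed genes had a promoter in the RefSeq table. Alternatives were other floors, pseudocounts and thresholds, a signal filter, protein-coding genes only, median centring, tied ranges raised to their top and the correction. All genes of the list were named, with every companion list gene past 3-fold in the same direction in both organs, *Rest*, up to 4 of the neuron markers with the highest signal, and for 5 regulators the 5 nearest genes. Of the genes this rule names, 1 is not reported here. *Dcx*, *Stmn2*, *Kdr*, *Cd68*, *Unc13b*, *Dab1*, *Ctdsp1*, *Pdgfra*, *Sox2*, *Srsf9*, *Srsf4*, *Tra2a* and the HC markers given as shares were named outside this rule, after their values were seen. The genes and lists were chosen with earlier results of these data known.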

Additional observations from a re-analysis of the deposited data

Results flagged for a closer look

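In 2 of the 9 regulators the HC to ENSC ratio went in opposite directions in the organs. *Nova1* was lower in HCs in the cochlea and higher in the vestibular system, with a difference of 2.18 between the log2 ratios (1.44 after correction for length and GC content), at signals of at most 80.5. *Ptbp1* was higher in HCs in the cochlea and lower in the vestibular system, with a difference of -2.14 (-1.39 after correction), and much of its exon sequence matches elsewhere in the genome. The differences were not tested, since each population had 1 column, and 27.0% of all genes had opposite signs in the organs.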

How the results depend on the processing

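*Rbm24* and *Srrm4* kept their direction and their call in HCs of both organs under every alternative tried, and no ratio of the 9 regulators that had passed 3-fold changed sign. Among the values of single regulators under the alternatives, 291 kept their side of the threshold, 20 lost their call and 1 gained one, *Srrm3* in the vestibular system after correction for length and GC content (log2 ratio 2.31, with the ENSC signal at the floor). At a 2-fold threshold the count of genes higher in cochlear HCs went from 2 to 5, the count lower in vestibular HCs from 0 to 1, and those higher and lower in cochlear against vestibular HCs from 0 to 2 and from 0 to 1, where 1 of the 2 higher genes, *Nova2*, is bounded only at 1.96-fold. The 5 genes higher in vestibular HCs became 3 with a floor of 50, with a floor of 100 and with a pseudocount of 100. The 3 genes higher in cochlear than in vestibular ENSCs became 0 with a floor of 50, a floor of 100 or a pseudocount of 100, and 1 with a pseudocount of 20 or a 5-fold threshold. The shares of all genes under these alternatives are not given here, so these counts cannot be read against them. Higher floors and pseudocounts compress ratios against signals near the floor by construction. Without read counts, the precision of low signals is unknown. No paired analysis was possible because each population had 1 column.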
